A study of Mus musculus with 24 samples.

Results

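The unrecombined d3 parental line was compared with the unrecombined i7 parental line, sublines of the same female mouse embryonic stem cell line. The comparison rests on 4 of the 24 libraries of the series, 2 replicate libraries per line, chosen by their labels alone. The stem cells are F121/9, an F1 hybrid of the strains 129/Sv and CAST/EiJ, so each gene has a 129S1 and a CAST copy whose reads were counted separately. Both lines carry the genotype label control and were grown alike, in serum-free medium with leukemia inhibitory factor, the MEK inhibitor PD0325901 and the GSK-3β inhibitor CHIR99021 (the condition called 2i+LIF) on gelatin. The labels do not say how the parental lines were made, how far apart they were in passage or whether they were handled on the same days, so line and batch cannot be told apart. Recombined clones of the same lines (d3 clones 12 and 21, i7 clones 7 and 12, 2 libraries each) gave 8 further libraries that share none with the parental comparison. The parental lines of d6, i12 and i10 gave 6 more. The series describes the replicates as biological duplicates but does not say whether they came from separate cultures. The p-values therefore measure only the spread between these libraries.

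Embryonic stem cells in 2i+LIF are held in the naive state, in which Pou5f1, Sox2, Nanog, Esrrb and Tfcp2l1 keep one another active. CHIR99021 blocks GSK-3 and so stabilises β-catenin, the transducer of the Wnt pathway, which lifts TCF repression from naive genes and, where the block is strong, also switches on Wnt targets and early mesendoderm genes such as Sp5 and T. Another program that cultured cells switch on and off together is the integrated stress response, in which the transcription factor ATF4 drives amino acid synthesis, amino acid uptake and tRNA charging genes. Stem cell sublines kept apart are also known to gain or lose stretches of chromosome.

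The promoters of 4 members of these programs are shown because the results return to them. They are from RefSeq on GRCm38.p6, 250 bases before to 50 after the start site, in the direction of the gene. For Sp5 (chr2:70474673-70474972, + strand) and T (chr17:8434173-8434472, + strand) capitals mark CTTTGA, the core bound by TCF and LEF factors, on either strand. For Chac1 (chr2:119350992-119351291, + strand) and Nupr1 (chr7:126625421-126625720, - strand) capitals mark TGATGNAA, the composite element bound by ATF4 with C/EBP factors, on either strand.
Sp5: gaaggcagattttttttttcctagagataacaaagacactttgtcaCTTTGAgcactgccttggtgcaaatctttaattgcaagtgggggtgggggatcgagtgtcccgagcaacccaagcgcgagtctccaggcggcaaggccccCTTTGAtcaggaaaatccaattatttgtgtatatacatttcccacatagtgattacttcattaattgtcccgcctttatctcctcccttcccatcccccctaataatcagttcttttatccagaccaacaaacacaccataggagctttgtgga
T: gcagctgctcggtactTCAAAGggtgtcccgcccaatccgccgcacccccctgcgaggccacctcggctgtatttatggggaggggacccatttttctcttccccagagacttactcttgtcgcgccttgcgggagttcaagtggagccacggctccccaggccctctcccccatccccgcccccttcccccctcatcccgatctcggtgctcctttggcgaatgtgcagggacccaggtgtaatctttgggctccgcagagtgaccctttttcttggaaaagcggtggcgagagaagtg
Chac1: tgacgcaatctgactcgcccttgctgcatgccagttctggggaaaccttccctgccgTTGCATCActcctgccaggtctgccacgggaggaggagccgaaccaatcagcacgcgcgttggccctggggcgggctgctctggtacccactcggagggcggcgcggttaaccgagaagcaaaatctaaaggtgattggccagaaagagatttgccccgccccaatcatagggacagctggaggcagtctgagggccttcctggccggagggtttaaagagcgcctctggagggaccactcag
Nupr1: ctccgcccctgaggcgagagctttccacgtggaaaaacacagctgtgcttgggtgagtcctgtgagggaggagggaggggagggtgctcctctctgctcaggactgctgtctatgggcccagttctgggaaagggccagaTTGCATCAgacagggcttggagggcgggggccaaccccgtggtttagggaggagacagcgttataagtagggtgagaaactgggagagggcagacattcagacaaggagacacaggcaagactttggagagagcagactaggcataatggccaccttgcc
CTTTGA was found in a promoter of 2 of the 9 matched genes of the mesendoderm and Wnt target list (14 tested), against 14.4% of the 10426 tested genes that had a RefSeq promoter. TGATGNAA was found in 10 of the 25 matched genes of the ATF4 list (30 tested), against 2.68%. A match of letters is a description and not a binding site.

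Gene positions are from GENCODE M21 on GRCm38. The d3 parental libraries held 12263924 and 10383315 counts in replicates 1 and 2, and the i7 parental libraries 7358368 and 10922801. The 9 embryonic stem cell markers in the table summed to 7817 to 8119 CPM (a count scaled to the effective size of its library) in d3 parental and 7673 to 8348 in i7 parental, which overlap. The 7 fibroblast feeder markers summed to 11.4 to 21.7 CPM and 16.6 to 17.2, with Col3a1 and Dcn at 0 counts. The 7 primitive endoderm markers summed to 6.38 to 15.5 CPM and 7.23 to 7.34. Marker sums that were higher in d3 parental were those of mesoderm (39.7 to 67.0 against 11.3 to 12.7 CPM, 4 markers), neural cells (36.0 to 63.3 against 15.8 to 21.4, 6 markers, Neurog2 and Dcx among those at 0) and trophectoderm (2.47 to 8.19 against 0 to 0.177, 5 markers). Of the trophectoderm markers 4 (Elf5, Gata3, Hand1 and Krt7) were at or under 3 counts in each library, so that sum was nearly all Cdx2, which is also on the list of Wnt targets. The d3 replicates differed more from each other than the i7 replicates did, with a median absolute difference of 0.483 against 0.212 on the log2 scale.

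One of the 4 libraries stood apart by transcript length. In replicate 2 of the d3 parental line, the difference between the longest and the shortest of 5 length classes was -0.599 on the log2 scale, against -0.151 to 0.214 in the other 23 libraries. The median difference between the lines ran with it, from 0.21 in the shortest class through 0.17, 0.06 and -0.07 to -0.22 in the longest. Between the clones the same medians ran from 0.03 to -0.04. Calls between the parental lines were 57 higher and 16 lower in the shortest class and 27 higher and 128 lower in the longest. The numbers of calls over all genes and over the main groups of genes are therefore also given with an offset for transcript length and without this library.

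**Figure D1:**
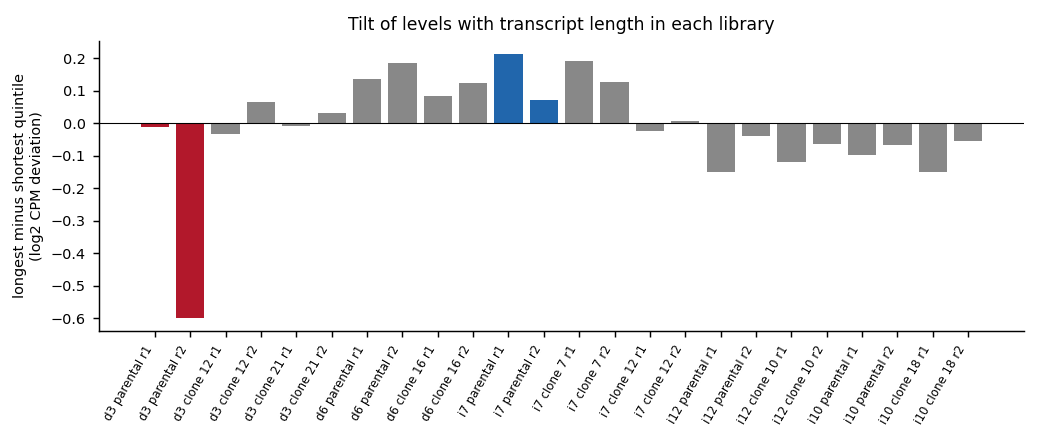
Each bar is 1 library, and its height is the median log2 CPM deviation of the longest length class minus that of the shortest, each gene's deviation taken from its own mean over libraries (red, d3 parental; blue, i7 parental; grey, the other libraries). Replicate 2 of the d3 parental line sits at -0.599 and the other 23 libraries between -0.151 and 0.214.

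Of 16253 genes tested, 606 (3.73%) differed between the parental lines at a Benjamini-Hochberg adjusted p under 0.05 (edgeR, quasi-likelihood). Of these, 308 (1.9%) were higher in d3 parental and 298 (1.83%) lower, and 4056 genes had an unadjusted p under 0.05. The called differences had a median size of 1.24 on the log2 scale, the smallest was 0.51, and 425 were at least 1. The 2 libraries of one line did not overlap those of the other for any of the 606, where this also held for 54.2% of all genes tested. Protein coding genes made up 271 of the higher and 264 of the lower calls, from 12704 tested, and processed pseudogenes 16 and 5 from 1752. The calls rested on a spread shared over the series. A fit of only the 4 libraries called 0 genes, and a fit of only the 10 parental libraries called 2.

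The number of calls depended on single libraries. Without replicate 1 of d3 parental 1748 genes were called, without its replicate 2 33, without replicate 1 of i7 parental 2, and without its replicate 2 33. In each of these fits the line with 1 library is assumed to vary like the other groups. All 606 differences kept their sign in all 4 fits, but 144 were called in none of them and 415 in 1. With the length offset 460 genes were called, 394 of them among the 606. The 2 genes called in all 4 were Prmt8, described below, and Scml2, an X-linked Polycomb group gene that was picked out after its values were seen. Scml2 had 37.2 and 30.3 CPM in d3 parental against 6.31 and 3.10 in i7 parental, a difference of 2.87 (adjusted p 0.00134).

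The clones were then used as other libraries of the same lines. Between d3 and i7 clones 2112 genes (13%) were called, 1050 (6.46%) higher and 1062 (6.53%) lower in d3. Of the 606 genes called between the parental lines, 449 (74.1%) were also called between the clones, 230 higher and 219 lower, and all 449 in the same direction. They made up 21.3% of the clone calls. The sign was shared for 605 of the 606, against 77.7% of all genes tested. The exception was Abcc4, at -0.84 between parental lines and 0.09 between clones. The median ratio of the clone difference to the parental difference was 0.65 over the 606. These genes were chosen by their parental differences, so smaller differences in other libraries are partly built in. No gene was called for a difference between both contrasts (472 at an unadjusted p under 0.05 by edgeR's quasi-likelihood test). Over all 12 libraries of the lines, the 6 of d3 and the 6 of i7 did not overlap for 459 of the 606, against 16.2% of all genes tested. This contrast is partly built in, because the 12 include the 4 parental libraries that chose the 606. In those 4, all 606 already did not overlap, against 54.2% of all genes tested. In the clone libraries alone 25.6% of all genes tested did not overlap, and the number among the 606 was not counted.

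The clone libraries are not free of what the parental libraries share. Across 16253 genes, which are not independent replicates, the difference between replicates 1 and 2 of d3 parental correlated with that of d3 clone 12 (r = 0.46) and d3 clone 21 (r = 0.55), and that of i7 parental with i7 clone 7 (r = 0.50) and i7 clone 12 (r = 0.36). d3 clone 21 has an allelic change over chromosome 14 and i7 clone 12 one over chromosome 19. Outside chromosomes 6, 14 and 19, 515 of the 606 calls remained and 377 of those were called between the clones. Of the 33 calls made without replicate 2 of d3 parental, 32 were also called between the clones, and with the length offset 356 of 460.

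**Figure D2:**
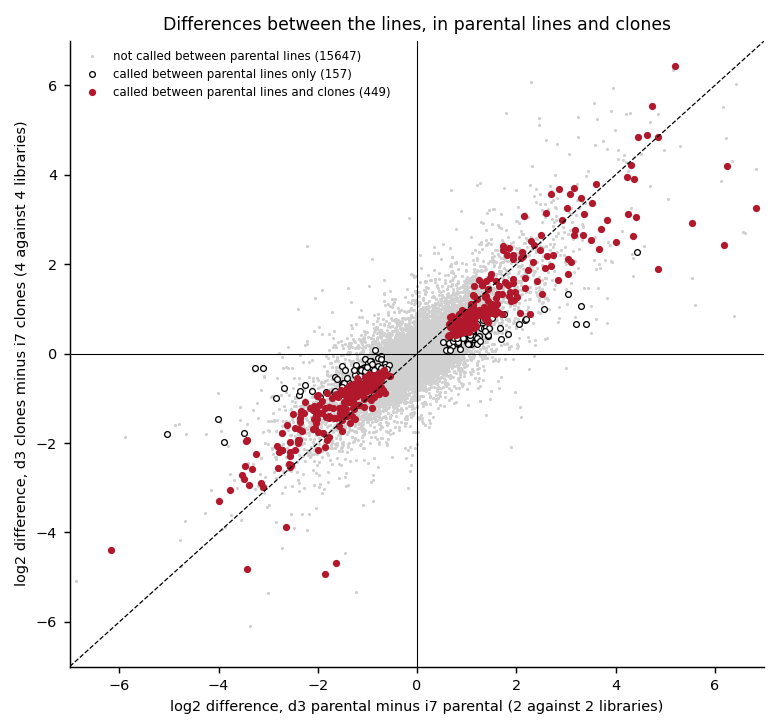
Each point is 1 gene, at its log2 difference between d3 parental and i7 parental (x axis) and between d3 clones and i7 clones (y axis), with the dashed line marking equal differences. The 449 genes called in both (filled) lie in the quadrants where both differences have the same sign, the 157 called between parental lines only are open, the 15647 not called are grey, and 2 genes lie outside the axes.

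Beyond the 4 libraries, the parental lines of d6, i12 and i10 did not side with either line as a whole. For each of the 606 genes it was asked whether a library lay nearer the d3 or the i7 parental mean. All 6 libraries lay on the d3 side for 66 genes, all 6 on the i7 side for 127, and the libraries were divided for 413. Replicate 1 of d6 parental lay on the d3 side for 371 genes and replicate 2 for 201, and replicates of i12 (321 and 180) and i10 (315 and 159) differed likewise. Replicates of the same line thus fell on different sides for many genes.

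The 12 genes with the highest differences among those with enough counts were 2.93 to 4.44 higher on the log2 scale in d3 parental. They were AI662270, Prmt8, Srarp, Gm8300, Sgo2b, Ly6a, Cited4, Calcoco2, Sh3bp5, Sp5, Tgfbr3 and Spats2l. All 12 were also called higher between the d3 and i7 clones, against 6.46% of all genes tested. For 11 of them, all but Sp5, the 6 libraries of d3 and the 6 of i7 did not overlap, against 16.2% of all genes tested. That count is partly built in, since the genes were chosen for no overlap in the parental libraries. Leaving out replicate 1 of d3 parental kept 9 of the 12 calls, leaving out its replicate 2 kept 3, leaving out replicate 1 of i7 parental kept 1, and leaving out its replicate 2 kept 3. With the length offset 10 were called, all but Gm8300 and Sp5. The sign was kept for all 12 in each case.

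Prmt8 (ENSMUSG00000030350.8, chr6:127689011-127769472), a membrane-bound protein arginine methyltransferase best known from neurons, had 9.09 and 12.97 CPM in the d3 parental libraries and 0.394 and 0.619 in those of i7. Both d3 libraries were high, and the clones repeated it, with 8.44 to 13.02 CPM in d3 clones and 0.474 to 0.979 in i7 clones. The difference was 4.36 ± 0.47 (SE, adjusted p 7.76e-04 by edgeR's quasi-likelihood test), and the other parental lines lay between the lines at 2.55 to 5.74 CPM. Its interval holds Gm42739 and Gm42738 on the other strand.

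AI662270 (ENSMUSG00000087107.8, chr11:83223576-83226604), a processed transcript of no known function that overlaps Gm11427 on the same strand, had 15.7 and 9.98 CPM in d3 parental and 0.526 and 0.619 in i7 parental. It was high in the 6 libraries of d3 and low in those of i7 and of the other parental lines, with 10.7 to 21.3 CPM in d3 clones, 0.227 to 1.18 in i7 clones and at most 0.572 in the other parental lines. Its difference was 4.44 ± 0.59 (SE, adjusted p 0.00305 by edgeR's quasi-likelihood test). Without replicate 1 of i7 parental the adjusted p was 0.126. Spats2l (ENSMUSG00000038305.15, chr1:57774162-57948394), which codes for a stress granule and nucleolar protein, had 19.1 and 18.5 CPM in d3 parental and 1.71 and 3.10 in i7 parental, a difference of 2.93 ± 0.45 (SE). The other parental lines held 11.8 to 29.9 CPM, so for Spats2l the libraries that stood apart were those of i7.

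Calcoco2 (ENSMUSG00000006056.13, chr11:96099326-96111964), an autophagy receptor for bacteria and damaged organelles also called NDP52, had 111 and 105 CPM in d3 parental against 9.86 and 13.7 in i7 parental. The d3 libraries were high together, and the clones followed at 55.0 to 117 against 10.7 to 13.8 CPM. The difference was 3.19 ± 0.62 (SE). Ly6a, the surface antigen Sca-1, had 15.5 and 13.8 CPM against 0.920 and 1.59. Cited4, a CBP/p300-binding coactivator, had 23.2 and 12.97 CPM against 1.97 and 1.68. Both genes were high in both d3 libraries.

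For Tgfbr3, the coreceptor betaglycan that presents TGF-β ligands, replicates of d3 disagreed, with 22.8 and 5.56 CPM against 2.36 and 1.24 in i7 parental. Sgo2b (23.2 and 5.35 against 1.45 and 1.06 CPM) and Gm8300 (18.5 and 4.84 against 1.05 and 0.619) had the same shape, with replicate 2 of d3 the lower one. Sgo2b has a near copy in Sgo2a, so its reads may have been split between copies, and Gm8300 is a predicted gene. One further gene was nearly absent from one line: AF067061 had 90 and 19 counts in d3 parental against 1 and 3 in i7 parental.

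The 12 genes with the lowest differences were 2.56 to 3.88 lower in d3 parental: B4galnt2, Ahnak2, Ppm1h, Trim56, Adhfe1, Parvg, Mcf2l, Slc12a8, Padi2, Rnf157, Chd5 and Bmf. Between the clones 11 of the 12 were called lower too, all but B4galnt2, against 6.53% of all genes tested. Leaving out replicate 1 of d3 parental kept 4 of the 12 calls, leaving out its replicate 2 kept 1, leaving out replicate 1 of i7 parental kept 0, and leaving out its replicate 2 kept 2. With the length offset 9 were called, all but Chd5, Ppm1h and Rnf157. As above, the sign was kept for all 12.

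Adhfe1 (ENSMUSG00000025911.14, chr1:9547948-9580673), a mitochondrial hydroxyacid-oxoacid transhydrogenase, had 1.41 and 1.75 CPM in d3 parental and 16.0 and 12.0 in i7 parental. Both d3 libraries were low, and so were the d3 clones (1.39 to 1.92 CPM), while the i7 clones held 7.74 to 17.1. The difference was -3.14 ± 0.53 (SE, adjusted p 0.00967 by edgeR's quasi-likelihood test). Parvg, an actin-linking partner of integrin-linked kinase, had 0.496 and 1.85 CPM against 11.4 and 8.40, with the other parental lines at 0.763 to 2.72. In Parvg, then, the i7 libraries were again the ones apart.

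Mcf2l (ENSMUSG00000031442.21, chr8:12873806-13020905), a guanine nucleotide exchange factor whose interval overlaps several predicted genes, had 2.56 and 1.95 CPM in d3 parental and 18.3 and 14.3 in i7 parental, a difference of -2.83 ± 0.50 (SE). The other parental lines held 8.12 to 18.4 CPM, so for Mcf2l the low libraries were those of d3. Padi2, a peptidylarginine deiminase that converts arginine to citrulline in histones and other proteins, had 4.47 and 9.47 CPM against 44.3 and 47.4, with 37.9 to 152 in the other parental lines. Slc12a8, a solute carrier, had 4.47 and 3.19 CPM against 28.5 and 24.6. For both genes the d3 libraries were low.

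Trim56, a ubiquitin ligase of antiviral signalling, had 1.74 and 3.50 CPM in d3 parental against 23.1 and 26.4 in i7 parental. Bmf, a BH3-only member of the Bcl-2 family that promotes cell death, had 2.48 and 3.60 against 19.6 and 16.3, and Chd5, a chromatin remodeller of the CHD family, 3.47 and 2.88 against 19.7 and 19.6. In all 3 the libraries of the lines did not overlap, as for each of the 606 calls. None of the 3 was among the calls kept when 1 library was left out. B4galnt2, a glycosyltransferase, had 1.08 and 1.44 CPM against 23.7 and 13.7, but i7 clones spanned 2.42 to 25.6 CPM and overlapped the d3 clones, so this difference was not called between clones (-1.98, adjusted p 0.0583).

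**Figure D3:**
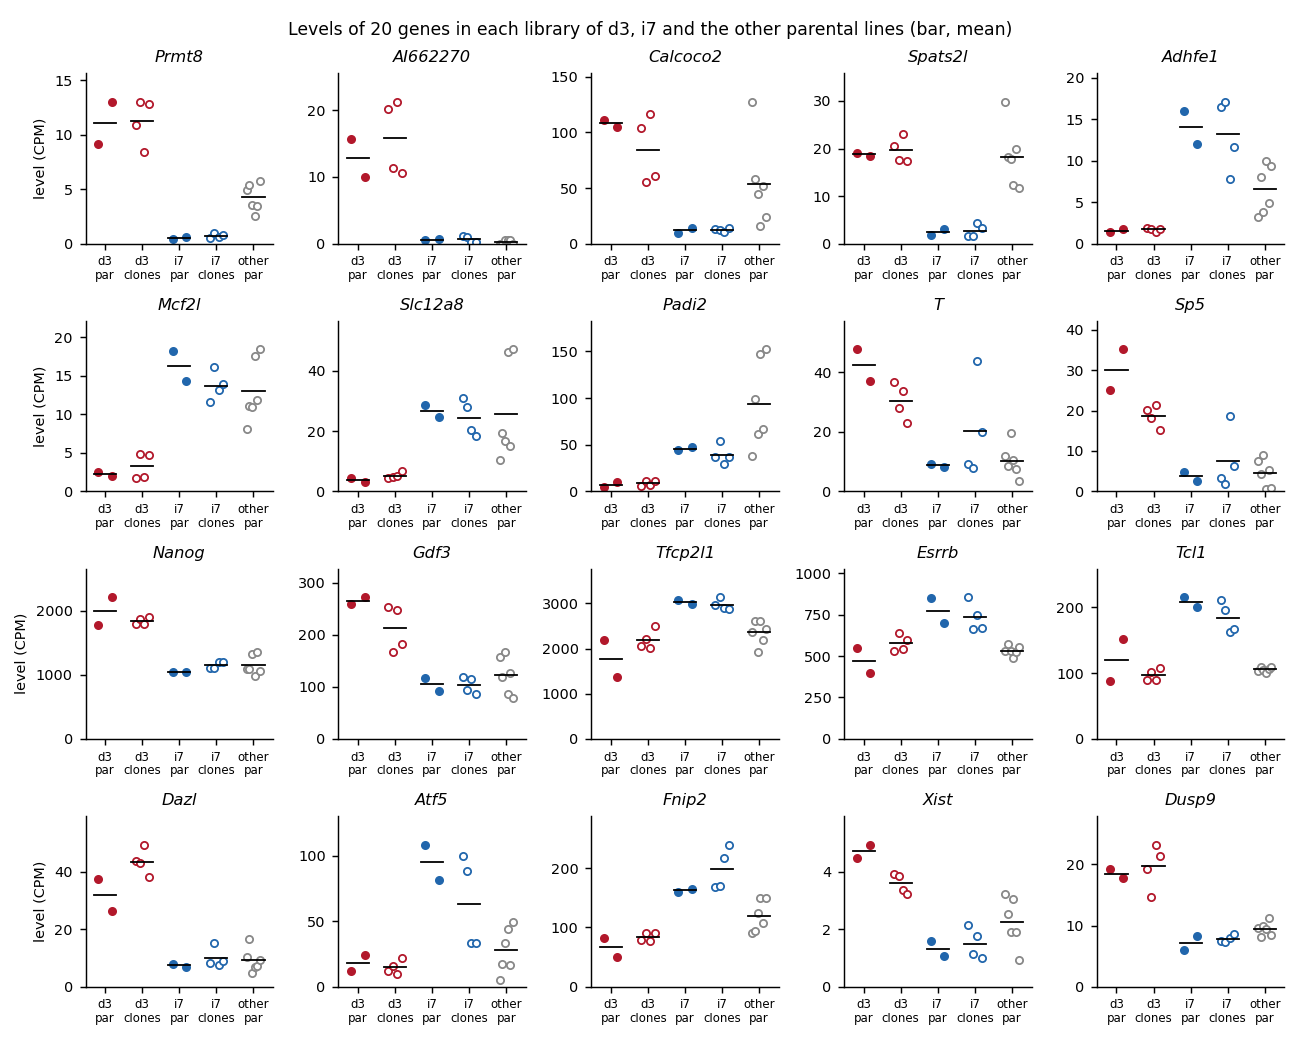
Each panel is 1 gene and each point 1 library, in CPM on a linear axis from 0, with filled points for the d3 and i7 parental lines, open red and blue for their clones, open grey for the other parental lines, and a bar at the mean. Prmt8 and AI662270 are high in all 6 libraries of d3, whereas T and Sp5 in the i7 clones reach into the range of d3.

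Of 14 Wnt targets and early mesendoderm genes tested, 2 were called higher in d3 parental and 0 lower, against 1.9% and 1.83% of all genes. In all 12 lay above 0, and the median difference was 1.74, against 0.02 over all genes tested (8329 of 16253 above 0). The called members were T, the Brachyury transcription factor of the primitive streak, and Sp5, a zinc finger factor and direct target of β-catenin. Leaving out any 1 library moved the median to between 1.44 and 1.79. The number called without replicate 1 or 2 of d3 parental was 4 and 1, and without either i7 library 0. Mesoderm marker sums, given above, include T itself, so they are not separate evidence.

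T (ENSMUSG00000062327.10, chr17:8434423-8442496) had 47.8 and 37.0 CPM in d3 parental and 9.20 and 8.31 in i7 parental, a difference of 2.28 ± 0.41 (SE, adjusted p 0.0119 by edgeR's quasi-likelihood test). Sp5 (ENSMUSG00000075304.2, chr2:70474923-70477729), whose promoter above holds CTTTGA at 2 places, had 25.1 and 35.2 CPM against 4.73 and 2.65, a difference of 3.05 ± 0.77 (SE, adjusted p 0.0408). Both genes separated the parental lines without overlap, as did 54.2% of all genes tested. The clones separated them less, since i7 clones held 7.97 to 43.7 CPM of T and 1.75 to 18.6 of Sp5, within or next to the d3 clones (23.0 to 36.7 and 15.1 to 21.3). The clone differences were 0.88 and 1.78.

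Cdx1, a caudal homeobox gene and Wnt target, had 45.1 and 54.5 CPM in d3 parental against 12.0 and 9.99 in i7 parental, and its adjusted p of 0.0543 missed the threshold. Cdx2, its relative that also specifies trophectoderm, had 96 and 24 counts in d3 parental and 0 in both i7 parental libraries. At a floor of 3 counts per library it was at least 15.8-fold higher, and its adjusted p was 0.0552. It was called between the clones (adjusted p 0.0094). The feedback inhibitors Notum (9.01 and 11.0 against 1.97 and 4.07 CPM) and Axin2 (50.6 and 35.1 against 26.1 and 20.3) were not called.

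Lefty1 and Lefty2, secreted inhibitors of Nodal, lay on the other side. Lefty2 had 123 and 61.4 CPM in d3 parental against 173 and 387 in i7 parental (difference -1.60, adjusted p 0.0862), and Lefty1 5.87 and 1.75 against 6.31 and 18.8 (-1.71). Neither was called between the parental lines, and both were called lower in d3 between the clones (-2.01 and -1.97). Between the clones the list of 14 had 6 members called higher and 2 lower, with a median of 1.03. Of all genes tested, 6.46% and 6.53% were called so.

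Genes of the formative and primed state, through which cells leave naive pluripotency, had 0 of 12 called (4 at an unadjusted p under 0.05), with 10 above 0 and a median difference of 1.15. Among all 16253 genes tested, 4056 had an unadjusted p under 0.05 (edgeR, quasi-likelihood). Lef1, a TCF-family factor, was nearest the threshold at 14.8 and 19.3 CPM in d3 parental against 5.91 and 4.60 in i7 parental (adjusted p 0.0524). Dnmt3b, a de novo DNA methyltransferase, had 210 and 97.0 CPM against 57.3 and 66.4 (adjusted p 0.247). Leaving out any 1 library moved the list's median to between 0.49 and 1.41.

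Among 17 naive pluripotency genes 1 was called higher and 3 lower, against 1.9% and 1.83% of all genes tested. Their median difference was -0.20. Nanog (ENSMUSG00000012396.12, chr6:122707489-122714633) had 1775 and 2217 CPM in d3 parental and 1048 and 1039 in i7 parental, a difference of 0.94 ± 0.18 (SE, adjusted p 0.0175 by edgeR's quasi-likelihood test). Both d3 libraries were high, and the d3 and i7 clones did not overlap either (1793 to 1908 against 1104 to 1203 CPM). Nanog lies in a stretch of chromosome 6 described below, in which many genes were higher in d3.

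The 3 naive genes that were lower in d3 parental included Tfcp2l1 and Esrrb, transcription factors downstream of LIF and β-catenin signalling in this state. Tfcp2l1 had 2191 and 1369 CPM against 3083 and 2996 in i7 parental (difference -0.77), Esrrb 549 and 397 against 848 and 701 (-0.71), and Tcl1, an Akt coactivator, 88.5 and 152 against 216 and 201 (-0.80). Replicates of d3 were uneven for all 3, and Tcl1 alone was called between the clones (-0.91). The adjusted p between clones was 0.0565 for Tfcp2l1 and 0.0853 for Esrrb.

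Pou5f1 (759 and 1109 CPM against 988 and 711), Klf4 (378 and 523 against 531 and 503), Sox2 (174 and 224 against 274 and 246) and Zfp42 (1618 and 1915 against 1343 and 1258) were not called. For Pou5f1 and Klf4 the libraries of the lines overlapped. Of 13 general pluripotency genes 2 were called, both higher, against 1.9% of all genes tested. They were Gdf3, a TGF-β family ligand that also lies in the chromosome 6 stretch (259 and 273 against 117 and 92.8 CPM), and Trim28, the KAP1 corepressor of KRAB zinc finger proteins. Trim28 had 1649 and 1719 CPM against 803 and 762, a difference of 1.11 (adjusted p 0.0492), and both genes were called between the clones. Trim28 was also the 1 of 13 genes called on the list of KRAB and endogenous retrovirus control.

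Of 30 genes of the ATF4 program tested, 2 were called lower in d3 parental and 0 higher, against 1.83% and 1.9% of all genes. Only 2 lay above 0, and the median difference was -0.91. Over all genes tested 8329 of 16253 lay above 0, with a median of 0.02. Leaving out replicate 2 of d3 parental gave a median of -1.65 and leaving out its replicate 1 -0.38, so the distance was larger for replicate 1. The called members were Atf5 and Cth. Between the clones 4 were called lower (median -0.74), against 6.53% of all genes tested.

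Atf5, an ATF4 target and itself a stress transcription factor, had 12.0 and 24.4 CPM in d3 parental against 109 and 81.7 in i7 parental, a difference of -2.39 ± 0.62 (SE, adjusted p 0.0424 by edgeR's quasi-likelihood test). Its interval overlaps Nup62 and Il4i1 on the other strand, and neither of its promoters holds TGATGNAA. Cth, the enzyme that makes cysteine from cystathionine, had 103 and 102 CPM against 250 and 235 (-1.25 ± 0.28 SE, adjusted p 0.0291). In both genes the d3 libraries lay below those of i7. With 1 library left out, Atf5 was called in 0 of the 4 fits and Cth in 1, the fit without replicate 1 of d3 parental.

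The members whose promoters are shown above with TGATGNAA differed widely between the d3 replicates. Nupr1, a stress-induced chromatin protein, had 2.73 and 63.3 CPM in d3 parental against 99.3 and 96.9 in i7 parental (adjusted p 0.506). Chac1, which degrades glutathione, had 1.74 and 8.03 against 15.1 and 14.7 (adjusted p 0.345). Both i7 libraries were high, replicate 1 of d3 was low, and replicate 2 lay between.

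Trib3 (24.1 and 147 against 211 and 178 CPM), the serine synthesis enzymes Phgdh (44.5 and 133 against 209 and 183) and Psph (45.1 and 154 against 233 and 232), and the amino acid transporter gene Slc7a5 (312 and 640 against 952 and 899) had the same order and were not called. Asns, asparagine synthetase, had 365 and 801 CPM against 746 and 666, so its libraries overlapped. Slc7a11, the cystine transporter gene, with 668 and 609 against 454 and 449, and the arginine transporter gene Slc7a3 were the 2 members above 0.

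Of 19 chaperone genes tested, 2 were called higher in d3 parental and 0 lower, against 1.9% and 1.83% of all genes. Between the clones 5 were called higher, against 6.46% of all genes. All 19 lay above 0, with a median difference of 1.01 (clones 0.48), where 8329 of all 16253 genes lay above 0. Calr, a calcium-binding chaperone of the endoplasmic reticulum, had 327 and 425 CPM against 157 and 188, a difference of 1.12 (adjusted p 0.0371 by edgeR's quasi-likelihood test). Hspa1a, an inducible Hsp70, had 2.56 and 1.54 against 0.526 and 0.531 CPM. Its i7 values rested on few counts, since 3 counts made 0.394 and 0.265 CPM in those libraries. Members that missed the threshold included Hspd1, the mitochondrial Hsp60 (647 and 664 against 213 and 303 CPM, adjusted p 0.051), and Hspa8, the constitutive Hsc70 (6784 and 5697 against 2759 and 2948). Leaving out 1 library moved the median to between 0.71 and 1.18, and 3 members were then called without replicate 1 of d3 parental and 0 in each of the other 3 fits.

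Cell cycle genes had 2 of 27 called, both higher, against 1.9% of all genes tested. Of the 27, 23 lay above 0, and the median was 0.45. Cdk1, the mitotic kinase, had 169 and 192 CPM against 108 and 100.4, a difference of 0.79. Ccnd2, a D-type cyclin in the chromosome 6 stretch, had 12 and 11 counts in d3 parental and 0 in both i7 libraries, so it was at least 3.22-fold higher at a floor of 3 counts per library. Ccnd1 (136 and 146 against 55.8 and 59.4 CPM) and Ccne1 (177 and 213 against 71.0 and 94.0) separated the lines without overlap but were not called. Such separation held for 54.2% of all genes tested. Top2a, the topoisomerase of dividing cells, had 861 and 808 CPM against 991 and 951 and was not called.

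**Figure D4:**
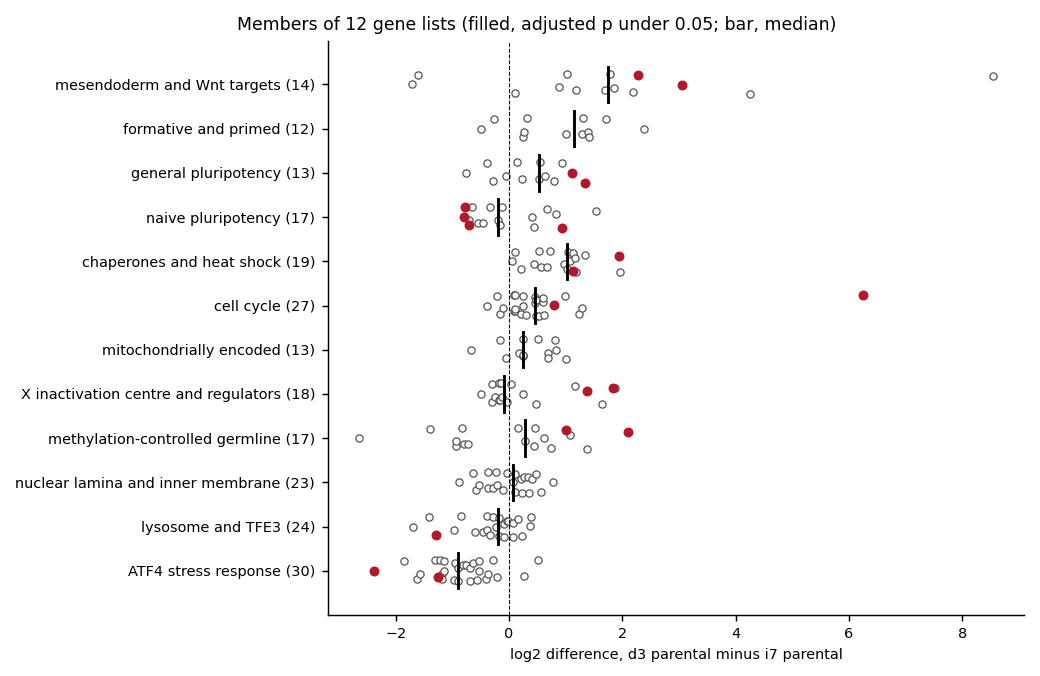
Each point is a tested member of 1 of 12 gene lists, at its log2 difference between d3 parental and i7 parental, filled where the adjusted p was under 0.05, with a bar at the list's median. The chaperone list lies above 0 throughout and the ATF4 list below 0 but for 2 members, while few points of any list are filled. The points farthest right, Cdx2 and Ccnd2, had 0 counts in i7 parental, so their positions depend on the fit and are no bound.

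Genes silenced by promoter methylation outside the germ line had 2 of 17 called, both higher, against 1.9% of all genes tested. Dazl, an RNA-binding protein of germ cells, had 37.3 and 26.1 CPM in d3 parental against 7.88 and 6.90 in i7 parental, a difference of 2.10 ± 0.33 (SE, adjusted p 0.00561 by edgeR's quasi-likelihood test), and the clones had 38.0 to 49.4 against 7.55 to 15.0. Tuba3a, a testis tubulin in the chromosome 6 stretch, had 157 and 206 CPM against 99.2 and 82.0. The list's median was 0.28. Of 18 methylation writers and erasers 1 was called, Uhrf2, a relative of the maintenance factor Uhrf1, at 49.4 and 47.4 CPM against 25.6 and 26.2.

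Of 18 genes of the X inactivation centre and its regulators 2 were called, both higher, against 1.9% of all genes tested. Both X chromosomes are active in naive female stem cells, and Xist, the RNA that silences one of them, is then low. Xist had 4.47 and 4.94 CPM in d3 parental and 1.58 and 1.06 in i7 parental, a difference of 1.84 (adjusted p 0.0314). Tsix overlaps it on the other strand. Dusp9, an X-linked phosphatase that restrains ERK in cells with 2 active X chromosomes, had 19.2 and 17.8 CPM against 5.91 and 8.31 (1.37, adjusted p 0.0133). Both were called between the clones as well (1.28 and 1.32). The median difference of all X-linked genes was 0.09 ± 0.06 (SD, n = 2).

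Of 46 imprinted genes 1 was called higher, Asb4 (5.29 and 4.12 CPM against 0.394 and 0.973), and 1 lower, the Polycomb-related gene Sfmbt2 (75.6 and 59.8 against 112 and 136). Both were called between the clones, and the other 44 were not called between the parental lines. Of all genes tested, 1.9% were called higher and 1.83% lower between the parental lines. Lysosomal and TFE3-related genes had 1 of 24 called, Fnip2, a partner of folliculin in nutrient sensing, at 82.2 and 50.4 CPM against 159 and 165 (-1.29, adjusted p 0.0119). Between the clones 11 of these 24 were called lower, against 6.53% of all genes tested. Their parental median was -0.20, with -0.39 to 0.06 when 1 library was left out. Lamp2 (16.0 and 12.7 against 49.8 and 43.7 CPM) was nearest the threshold, at an adjusted p of 0.0561.

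Single members of other lists were called. Idh1, the cytosolic isocitrate dehydrogenase whose gene neighbours the gamma-crystallin cluster, had 163 and 174 CPM against 93.4 and 93.8. It was the 1 member called of 6 tested on the list of that cluster and Akr1cl. On that list 5 lay above 0, and the median difference was 1.96, or 1.68 to 2.15 with 1 library left out. Between the clones 4 of its members were called higher (median 1.97), against 6.46% of all genes tested. The 6 libraries of d3 and the 6 of i7 did not overlap for 5 members, against 16.2% of all genes tested. Crygd, a member of that cluster, had 9.84 and 4.63 CPM against 0.788 and 0.442 and was not called (adjusted p 0.0695). Srebf2, the transcription factor of sterol synthesis, was lower at 165 and 118 CPM against 301 and 278 (-1.03, adjusted p 0.0309), and the other 32 members of the sterol list were not called.

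Genes of the nuclear lamina and inner nuclear membrane, which the series is about, had 0 of 23 called by edgeR's quasi-likelihood test (4 at an unadjusted p under 0.05). Of these, 12 lay above 0, and the median was 0.07. Between the clones 2 were called in each direction, against 6.46% higher and 6.53% lower of all genes tested. Lmna, lamin A/C, had 32.5 and 31.2 CPM in d3 parental against 26.3 and 41.7 in i7 parental, and its libraries overlapped. Lmnb1, lamin B1, had 612 and 591 against 317 and 382 (0.78, adjusted p 0.104), and Lbr, the lamin B receptor, 147 and 141 against 219 and 226 (-0.63, adjusted p 0.0969). Lmnb1 and Lbr separated the lines without overlap, as did 54.2% of all genes tested, and missed the threshold. Lists with 0 called in either direction, given with the number at an unadjusted p under 0.05, were the p53 pathway (4 of 24 tested), glycolysis and hypoxia (7 of 33), immediate early genes (3 of 18), interferon response (0 of 15) and mitochondrially encoded genes (5 of 13). So were those of primitive endoderm (5 of 12), trophectoderm (2 of 7), neural cells (3 of 6), feeder cells (2 of 5), the Schlafen cluster (0 of 4) and the two-cell-like state (1 of 1). Over all genes tested, 4056 of 16253 had an unadjusted p under 0.05 in the same test.

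Of the 24 called list members, 18 were also called in the same direction between the clones, all but Calr, Cth, Esrrb, Srebf2, Tfcp2l1 and Uhrf2. Of all genes tested, 13% were called between the clones in either direction. All 24 had the same sign, against 77.7% of all genes tested. Leaving out replicate 1 of d3 parental kept 20 calls and leaving out its replicate 2 kept 3 (Dazl, T and Tcl1). Leaving out either i7 library kept 0. With the length offset 17 of the 24 were called, all but Esrrb, Gdf3, Sfmbt2, Sp5, Tfcp2l1, Trim28 and Tuba3a.

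A stretch of chromosome 6 from 122 to 132 Mb differed between the lines in both level and allele. Its ends were chosen with these values known, so it is described and not tested as a unit. Chromosome 6 also had the highest share of calls, 6.25% (40 higher and 9 lower of 784 tested), against 2.69% to 4.57% on the other autosomes and the X. Inside the stretch 25 of 106 tested genes were called higher in total counts and 0 lower, 81 lay above 0, and the median difference was 0.59 (clones 0.62, with 42 called higher and 1 lower).

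The alleles separated the lines more sharply than the total. In 54 genes of the stretch covered on both alleles, 69.1% of the counts of d3 parental replicate 1 were from the 129S1 allele (95% Wilson interval 68.8 to 69.4) and 70.0% of replicate 2 (69.8 to 70.3). In i7 parental the shares were 55.7% (55.3 to 56.2) and 55.7% (55.3 to 56.1). All 6 libraries of d3 lay at 68.4% to 70.0% and the other 18 libraries of the series at 50.2% to 56.5%, with no overlap. In the flanks of the stretch all 24 libraries lay at 47.0% to 53.5%, and over the other autosomes at 49.6% to 50.1%. The intervals cover counting error only.

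Split by allele, the median gene was 0.98 ± 0.17 (SD, n = 2) higher in d3 parental in 129S1 counts and 0.15 ± 0.20 in CAST counts, and the ratio of 129S1 to CAST was 0.83 ± 0.01 higher. Between the clones these medians were 0.89, 0.08 and 0.89. Total counts of the median gene were 0.52 ± 0.07 higher, against -0.08 to 0.09 over the other 19 chromosomes, where the ratio ran from -0.03 to 0.09. For the median gene the difference lay in the 129S1 counts, while the CAST counts differed by less than the spread of the 2 libraries. Single genes departed from this. Phc1 and Foxm1 had total differences of -0.04 and 0.05 beside ratio differences of 1.01 and 1.10.

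Allelic ratios (129S1 over CAST) could be tested in 10795 genes, and 44 (0.408%) were called, 35 (0.324%) with a higher 129S1 share in d3 parental and 9 (0.0834%) with a lower one (1166 at an unadjusted p under 0.05). Of the 60 genes tested inside the stretch, 24 were called, all higher, and 56 lay above 0. Of 42 tested from 118 to 137 Mb but outside it, 0 were called (3 at an unadjusted p under 0.05). Between the clones, where the ratio was called in 913 genes (8.46%; 4.01% with a higher and 4.45% with a lower 129S1 share in d3), all 24 were called in the same direction. Leaving out 1 of the 4 libraries kept 15 to 21 of the 24.

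At the near end of the stretch, A2m, the last tested gene outside it, had a ratio difference of -0.0029. M6pr, a mannose 6-phosphate receptor gene and the first tested gene inside, had a ratio difference of 0.34 that was not called (adjusted p 0.517), and Phc1, a Polycomb subunit next to it, had 129S1 shares of 63.9% and 63.0% in d3 parental against 46.2% and 47.2% in i7 parental, a ratio difference of 1.01 ± 0.10 (SE, adjusted p 4.11e-05 by edgeR's quasi-likelihood test). At the far end Ybx3, a cold shock domain protein, had 77.3% and 79.6% against 61.5% and 66.0% (1.06), and the nearest tested gene beyond it, Smim10l1, -0.015. By bins of 2 Mb, the median ratio differed by -0.0016 from 120 to 122 Mb (12 genes) and by 0.69, 0.85, 1.00, 0.90 and 1.05 in the 5 bins from 122 Mb on (10, 27, 4, 12 and 1 genes).

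Ncapd2, a condensin subunit, had the smallest p of the ratio, with 129S1 shares of 70.7% and 70.9% against 51.8% and 55.2% (1.10 ± 0.11 SE, adjusted p 3.1e-05). Its total level was 809 and 666 CPM against 602 and 596, and the total was not called (adjusted p 0.208). Foxm1, a transcription factor of mitotic genes (70.5% and 71.4% against 51.7% and 55.1%), and Chd4, the remodeller of the NuRD complex (79.8% and 75.5% against 62.8% and 64.2%), behaved alike, called in the ratio and not in the total. Slc2a3, the glucose transporter GLUT3, had 63.0% and 60.7% against 44.1% and 45.9%, with a total of 862 and 1400 CPM against 688 and 770 that was not called.

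Other genes of the stretch were called in both measures. Mrpl51, a mitochondrial ribosomal protein (ENSMUSG00000030335.6, chr6:125191801-125196269), had 113 and 159 CPM against 42.6 and 46.2, a difference of 1.61 ± 0.24 (SE, adjusted p 0.00488), with 129S1 shares of 82.2% and 81.8% against 55.9% and 62.3%. Ybx3 had 127 and 188 CPM against 57.0 and 57.8 (1.45 ± 0.18 SE, adjusted p 0.0016). Fkbp4, an Hsp90 cochaperone, had 1048 and 1465 CPM against 625 and 629, and Phb2, a prohibitin of the inner mitochondrial membrane, 662 and 917 against 355 and 390. Phb2 overlaps Gm15884 on the other strand, which was itself called in both.

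For these genes the d3 libraries were high in the total and in the 129S1 share at once. Tigar, a p53 target that limits glycolysis (415 and 472 against 175 and 183 CPM), Nop2, a ribosomal RNA methyltransferase (106 and 121 against 35.6 and 39.6), Usp5, a deubiquitinase (101 and 159 against 54.5 and 59.6), and Gdf3 were also called in both. Nanog was called in the total, and its ratio difference of 0.71 had an adjusted p of 0.087. Without replicate 2 of d3 parental, or without replicate 2 of i7 parental, Mrpl51, Ybx3 and Prmt8 were the 3 of the 25 total calls that remained. Without replicate 1 of i7 parental Prmt8 was the 1 that did, and without replicate 1 of d3 parental there were 22. With the length offset 21 of the 25 were called. Prmt8 itself had a ratio difference of -0.60 ± 1.08 (SE) that was not called (adjusted p 0.897 by edgeR's quasi-likelihood test). Between the clones its ratio difference was 1.64, also not called (adjusted p 0.153). Its level in i7 parental, given above, left few counts to split by allele.

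**Figure D5:**
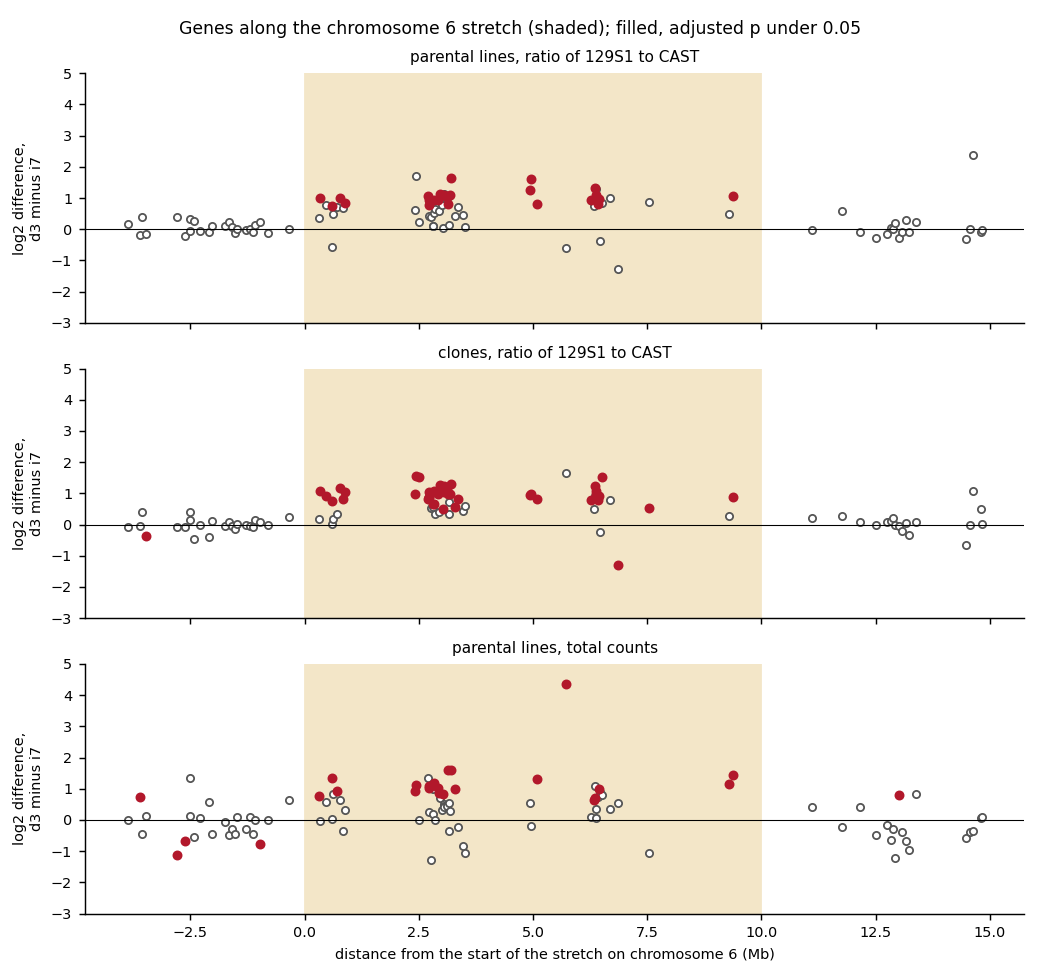
Each point is a gene tested for the allelic ratio near the stretch (shaded, 10 Mb wide), at its distance from the start of the stretch and its log2 difference between d3 and i7: the 129S1 to CAST ratio of the parental lines (top), that of the clones (middle) and total counts of the parental lines (bottom), filled where the adjusted p was under 0.05. Inside the shading these are 60 of the 106 genes tested in total counts. The called Ccnd2, Clec4a1 and 2010008C14Rik are among those not drawn. In the top panel 24 filled points lie inside the shading and 0 outside it.

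Outside the stretch the ratio was called in 20 genes, 11 with a higher and 9 with a lower 129S1 share in d3 parental. Of these, 17 were called in the same direction between the clones, all but Gldc, Naa11 and Tnfrsf19. Among all genes tested for the ratio, 8.46% were called between the clones in either direction. Leaving out replicate 1 of d3 parental kept 12, leaving out its replicate 2 kept 5, leaving out replicate 1 of i7 parental kept 2, and leaving out its replicate 2 kept 6. Gldc, the glycine cleavage enzyme on chromosome 19 that marks naive and germ line cells, was called in both measures. It had 128 and 145 CPM in d3 parental against 297 and 313 in i7 parental (-1.16, adjusted p 0.0126), with 129S1 shares of 50% and 54.1% against 66.8% and 65.6%. The i7 clones spanned 46.7% to 66.9%, and i7 clone 12 has the allelic change over chromosome 19 named above.

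Jup, plakoglobin of the adherens junction and desmosome, moved its alleles and its total apart. Its level was 107 and 71.8 CPM in d3 parental against 178 and 183 in i7 parental (-1.01, adjusted p 0.0208), and the 129S1 share was 90.0% and 92.1% against 76.8% and 78.4% (1.54, adjusted p 0.0441). Tnrc18, a chromatin-binding protein, had 65.1% and 60.3% against 46.1% and 41.4%, with a total difference of -0.01. Epb41l1, a membrane skeleton protein of the band 4.1 family, had 15.7% and 15.9% against 38.0% and 38.7%, with a total difference of -0.34 that was not called. In Tnrc18 and Epb41l1 the clones repeated the parental shares, at 60.9% to 65.3% against 43.3% to 45.8% and at 14.6% to 24.5% against 38.0% to 43.7%.

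Plagl1, an imprinted zinc finger gene, had 65.8% and 68.9% of its counts on the 129S1 allele in d3 parental against 79.7% and 76.7% in i7 parental (-0.78). Its clones lay at 65.2% to 68.4% and 76.7% to 78.7%, so the 6 libraries of each line stayed apart. Tnfrsf19, a TNF receptor family member and Wnt target on chromosome 14, had 44.6% and 46.8% against 32.5% and 31.2% (0.86), but its d3 clones ran from 0.467% to 47.6%, one of them being clone 21 with its allelic change over chromosome 14. The difference between clones was -2.61, the 1 ratio call whose sign was not shared.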

How the data were processed

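Poly(A) RNA of 24 libraries was read from a single end, 75 bases, after stranded library preparation, per the labels' protocols. The submitters' processing notes name STAR, SAMtools and mm10, without versions or order; the counting program, its use of strand and its treatment of reads without an informative variant are not given in the sources used here. The deposited table holds raw counts per gene, 1 column per allele (129S1 and CAST, per the file headers) and library, and both were added for expression. Of 48985 gene identifiers 48838 matched GENCODE M21 (GRCm38) without version, 48301 with it, and the other 147 held 0.0148% of the counts.

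Total counts were tested with edgeR 4.0.16 (R 4.3.3): TMM, filterByExpr on the 12 groups (16253 genes), 1 quasi-likelihood fit of all 24 libraries leaving 12 residual degrees of freedom (biological coefficient of variation 0.246), and Benjamini-Hochberg adjustment over all genes at 0.05. The contrast was d3 parental minus i7 parental, so positive is higher in d3; SE is that of the log2 difference. The clone contrast was the mean of d3 clones 12 and 21 minus that of i7 clones 7 and 12. The 129S1 to CAST ratio was fitted in 10795 genes averaging 10 or more counts on each allele, with 1 term for each library and 1 allele term for each group. Chromosome medians used genes with a 129S1 share of 0.2 to 0.8, with a pseudocount of 0.5 for CPM and ratio. Total counts per library over the series ran from 3286819 to 15581094. Levels are CPM of the effective library size.

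The members and lists were chosen with earlier results of these data known. Named genes were the 12 highest and 12 lowest called differences that averaged 50 or more counts without overlap of the lines, genes at no more than 3 counts in 1 line and averaging 50 or more in the other, called list members, the 10 ratio calls of smallest p, up to 10 genes called in both measures, and 10 markers; of the 44 ratio calls, those named beyond the rule were chosen after their values were seen, as were list members that were not called. Replicate numbers did not pair the parental lines: the replicate differences of d3 and i7 correlated at r of -1.6e-05. Alternatives were other scaling (DESeq2 1.42.0), filters, single alleles, fits of fewer libraries, a replicate block, a length offset and left-out libraries. Python 3.11.15, numpy 2.4.6, pandas 2.3.3 and matplotlib 3.10.9 did the rest.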

Additional observations from a re-analysis of the deposited data

How the results depend on the processing

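The 606 calls between the parental lines became 502 with 129S1 counts alone, 602 with DESeq2 size factors, 589 without mitochondrial genes, 695 among genes averaging 50 or more counts and 460 with an offset for transcript length, an alternative chosen after seeing the data. The count moved further to 353 with CAST counts alone, 1522 with DESeq2's Wald test, 2165 without a filter on low counts, 30 at an adjusted p under 0.01 and 18 when at least 1.5-fold was asked. Fits of only the 10 parental libraries gave 2 and of only the 4 libraries 0 (3050 at an unadjusted p under 0.05 in edgeR). Leaving out 1 library gave 2 to 1748. With a replicate block within each recombination 5841 genes were called and in the 4 libraries alone 1156; the replicate numbers did not pair these lines. For the clones, 2112 became 3292 without a filter, 6733 with the replicate block, 632 and 670 without d3 clones 12 and 21, 947 and 540 without i7 clones 7 and 12, and 621 to 1919 with 1 library left out. The 44 ratio calls became 23 at an adjusted p under 0.01, 431 with the replicate block, 0 in the 4 libraries alone (958 at an unadjusted p under 0.05) and 17 to 177 with 1 library left out, and the 913 of the clones 1583 with the block. Called list members went from 24 to 129 without a filter, 232 with the block and 58 with DESeq2's Wald test. In the chromosome 6 stretch, genes averaging 50 or more counts gave a total of 0.64 and a ratio of 0.86, and leaving out 1 library a ratio of 0.82 to 0.86. Of single named genes, 1 difference reversed, Rhno1 with CAST counts alone (-0.042). Over all alternatives of named genes' totals, 814 kept their side of the threshold, 468 lost it and 14 crossed into it; for ratios 144 kept it and 36 lost it. The cause of these changes was not tested. The 2 libraries per line limit the precision.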

Other observations

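Mitochondrially encoded genes held 6.11% and 3.16% of the counts of the d3 parental libraries and 4.01% and 4.14% of those of i7. None of the 13 was called between the parental lines by edgeR's quasi-likelihood test, with a median difference of 0.25. Of them 5 had an unadjusted p under 0.05, against 4056 of all 16253 genes tested. Between the clones 8 were called higher in d3 (median 1.18), against 6.46% of all genes tested. For mt-Nd5, a subunit of respiratory complex I, the d3 replicates held 3814 and 1023 CPM and enclosed the i7 values of 2017 and 2284. For mt-Co2, a subunit of cytochrome c oxidase, both d3 libraries lay above those of i7, at 7158 and 6943 CPM against 3734 and 4354.

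CG dinucleotides were counted in RefSeq promoters of 300 bases, with no test of a difference. The median count was 12 for the 7 of 12 highest genes that had one and 17 for 11 of the 12 lowest, against 22 over 10437 tested genes. Over all calls it was 21 for higher and 22 for lower genes.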
